A study of Mus musculus with 48 samples.

Results

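Aminoacyl-tRNA synthetases attach each amino acid to its transfer RNA and so supply the ribosome with charged tRNA. The 35 synthetase genes described here were taken from the gene count table by their symbols: 20 encode enzymes of the cytosol, and 15, whose symbols end in 2, encode enzymes that work in mitochondria. All 35 were found, and all 35 passed the filter on low counts that 14836 of 23732 genes in the table passed. They were followed in liver mRNA of 48 male C57BL/6 mice aged 4 to 6 months, 24 wild type (WT) and 24 Bmal1 knockout (KO). KO mice were Bmal1f/f-EsrCre: both Bmal1 alleles were floxed, and tamoxifen switched on a Cre present in all tissues. WT mice were Bmal1f/f littermates that lacked Cre. Both genotypes received 5 mg of tamoxifen daily by gavage on 5 days, and 7 days after the last dose entered 36 h of constant darkness. They were then killed in darkness every 4 h over 20 h, 4 mice per genotype and time, and hours follow the zeitgeber scale (ZT) of the labels. Cre was present in all KO mice and in no WT mouse, so an effect of Cre and the loss of Bmal1 cannot be told apart. Cre acts throughout the body, so a change in liver and a change that reaches it from other organs cannot be told apart either.

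The cytosolic enzymes serve the ribosomes that translate nuclear mRNA. The mitochondrial enzymes are also encoded in the nucleus, are imported, and serve the few proteins that mitochondria translate themselves. Gars and Kars, counted here as cytosolic, are single genes that make both forms. BMAL1, the transcription factor removed in KO mice, pairs with CLOCK and activates genes through the E-box, and the factor ATF4 raises many cytosolic synthetase genes through another element, CARE, when amino acids run short. The liver uses amino acids from meals for protein, glucose and urea, and its translation machinery is known to follow the daily feeding cycle.

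Library totals lay between 33562272 and 34035644 counts. The targeted gene, Arntl (the symbol of Bmal1), ran in WT from a group mean of 1.35 CPM (counts scaled to the size of the library) at ZT8 to 43.9 at ZT20, and in KO stayed between 10.1 and 17.9 CPM; the floxed allele removes part of the gene, so counts over all of it do not check the deletion. The libraries of KO mice 20 and 21 (ZT12), KO mice 43 and 44 (ZT0) and WT mouse 29 (ZT16) lay far from their groups. Chi-square per degree of freedom between WT mouse 29 and its 3 mates was 184 to 188, and for KO mouse 44 it was 87.9 to 168. WT mouse 45 of ZT0 (95.0 to 142) and KO mouse 18 of ZT12 (90.8 to 164) stood about as far out as KO mouse 44. Both were left out only singly. Calls that end without the 4 KO libraries, or without WT mouse 29, are given beside the results. Summed hepatocyte markers lay between 15189 and 27930 CPM in WT and between 15922 and 26205 in KO. Adipocyte markers, 3 in the table, summed to at most 0.141 CPM, and exocrine pancreas markers summed to 15.6 to 54.1 CPM in WT and 19.9 to 62.7 in KO, with 1 of 2 tested higher in KO. Of the other marker lists, 1 of 6 hepatocyte markers was higher and 1 lower in KO, and 1 of 5 endothelial and 1 of 4 neutrophil markers were lower; the part of these markers in the results was not tested. Mean body weight was lower in KO than in WT mice at every time, though the ranges over all mice overlapped. Body weight and genotype are therefore partly confounded, which bears on fits with a term for body weight. Of the 48 mice 10 were housed alone and 38 in cages. Cages were tied to time of day: caged mice of ZT4 and ZT8, of ZT12 and ZT16, and of ZT20 and ZT0 came from separate cage sets, so a difference between sets and a difference between those times cannot be told apart. In 11 cages a KO and a WT mouse of the same time shared the cage, and these 22 mice were also compared within cages.

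Promoter windows reaching from 250 bases before to 50 after the start of the gene were available for 26 of the 35 genes, 13 of each class, from RefSeq on mouse build GRCm38.p6. They were searched on both strands for the E-box CACGTG and for CARE, spelled TGATGNAA. Stretches are shown because BMAL1 with CLOCK and ATF4 are known to bind these letters. An E-box stood in 4 of 13 cytosolic windows and in 1 of 13 mitochondrial genes, against 8.09% of 27025 genes with a window. The 5 stretches are printed 5′ to 3′ on the strand of the gene, with the motif in capitals.
Aars (chr8:111033671-111033726, plus strand): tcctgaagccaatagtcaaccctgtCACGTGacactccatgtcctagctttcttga
Farsb (chr1:78488906-78488961, minus strand): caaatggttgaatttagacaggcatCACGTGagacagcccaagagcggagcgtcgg
Iars (chr13:49682036-49682091, plus strand): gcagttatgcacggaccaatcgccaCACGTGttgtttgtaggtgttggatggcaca
Tars (chr15:11399622-11399651, minus strand): tccgcctgtggcCACGTGgcgcacgcgcag
Ears2 (chr7:122067048-122067077, minus strand): cgcgaaggagccCACGTGtgtgtttctagt

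CARE stood in 5 of 13 cytosolic windows and in 0 of 13 mitochondrial genes, against 4.51% of all genes with a window. Aars, Iars and Tars hold both elements. The first match of each gene is printed in the same way; the letters TTGCATCA and TTTCATCA are the element read on the other strand.
Aars (chr8:111033705-111033762, plus strand): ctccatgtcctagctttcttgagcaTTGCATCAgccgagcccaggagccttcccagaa
Gars (chr6:55037946-55038000, plus strand): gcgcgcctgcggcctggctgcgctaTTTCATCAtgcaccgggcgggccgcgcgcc
Iars (chr13:49682126-49682155, plus strand): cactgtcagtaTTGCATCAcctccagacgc
Tars (chr15:11399659-11399698, minus strand): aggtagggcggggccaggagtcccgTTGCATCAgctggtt
Yars (chr4:129189895-129189924, plus strand): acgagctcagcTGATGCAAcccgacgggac
The D-box TTATGTAA, the core TAGGTCA of the REV-ERB and ROR element, and the endoplasmic reticulum stress element ERSE were in none of the 26 genes' windows, against 1.11%, 2.97% and 0.137% of all genes. A match describes letters only; binding was not measured. The unmatched members are Cars, Hars, Lars, Nars, Rars, Vars, Wars, Hars2 and Pars2.

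Cytosolic synthetases were more abundant than mitochondrial ones in both genotypes. Levels of different genes were compared as CPM per kilobase of coding length, as the median over the 24 mice of a genotype. In WT liver the median over the 20 cytosolic genes was 26.3 CPM per kb (11.1 to 102), and over the 14 mitochondrial genes other than Lars2 9.15 (2.16 to 30.2). Corresponding medians in KO were 27.0 and 9.41 CPM per kb. Aars, the alanine enzyme, stood highest among the cytosolic genes at 102 CPM per kb in WT, followed by Tars (threonine) at 83.4, Nars (asparagine) at 80.5 and Dars (aspartate) at 68.2. The medians of these 4 stood apart from the rest of their class: the next was Eprs, the joint glutamate and proline enzyme, at 34.7, and the lowest were Lars (leucine) at 11.9, Vars (valine) at 11.3 and Cars (cysteine) at 11.1. The ranges over mice of Aars, Tars and Nars overlapped, as did those of Lars, Vars and Cars. Transcripts of Aars share a stretch of 1326 bases with Exosc6 at 100% identity, and its part in the level of Aars was not tested. Among mitochondrial genes Iars2 (isoleucine) led with 30.2 CPM per kb, then Fars2 (phenylalanine) with 21.5 and Hars2 (histidine) with 20.2, and the lowest were Pars2 (proline) at 2.74 and Mars2 (methionine) at 2.16. For most amino acids with a gene in each class the cytosolic gene had the higher WT median. The exceptions were leucine (Lars 11.9, Lars2 177) and isoleucine (Iars 14.4, Iars2 30.2), while Fars2 at 21.5 stood between the cytosolic subunits Farsa at 13.8 and Farsb at 23.1.

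**Figure D1:**
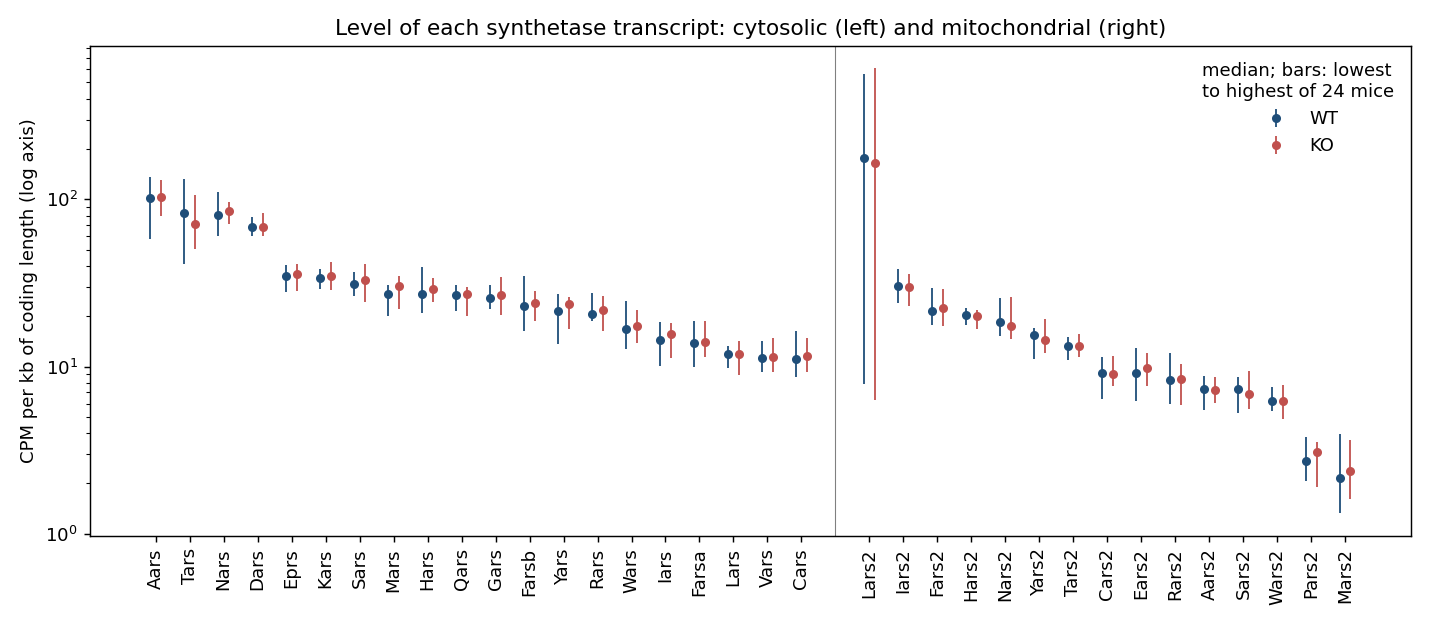
Median level of each gene over 24 mice per genotype (points) with the lowest and highest mouse (bars), in CPM per kb of coding length on a log axis. Aars, Tars, Nars and Dars stand above the other cytosolic genes, and the bars of Lars2 span far more than those of any other member.

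Lars2, the mitochondrial leucine enzyme, was the exception in level and in spread. In WT its lowest, median and highest mouse stood at 21.3, 479.7 and 1512 CPM, and in KO at 17.2, 448.7 and 1647 CPM. Mice of 1 group differed as widely: the 4 WT mice of ZT16 read 1027, 231.0, 21.3 and 1512 CPM. Its spread within groups was 1.52 on the log2 scale (SD), against a median of 0.144 over cytosolic genes and 0.154 over the other mitochondrial ones. Of 14835 other genes tested, AY036118 ran most like it over the 48 mice (r = 0.77, rho = 0.578 on log2 CPM), with r = 0.61 without the 2 mice farthest out, r = 0.79 on deviations from group means and r = 0.75, 0.88 and 0.77 over the caged mice of the 3 cage sets; the next gene, Car5a, reached r = 0.49. Since AY036118 was picked as the highest of all genes, these values are a description. A stretch of 72 bases in Lars2 matches the transcript Gm15564 at 98.6% identity. No test called Lars2 (average difference KO minus WT 0.0079 ± 0.35 SE on the log2 scale, edgeR adjusted p = 0.992), and values over the mitochondrial class below leave it out where stated.

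In WT liver 12 of 20 cytosolic and 8 of 15 mitochondrial synthetases followed a 24 h wave. A 24 h wave was fitted separately in WT and KO and tested with edgeR's quasi-likelihood test, p values were adjusted by Benjamini-Hochberg over all 14836 genes, and genes under 0.05 are called. The same test called 48.1% of all genes in WT, so the members' share of 57.1% stood a little above the share of all genes. The amplitude is the fitted distance from mean to peak on the log2 scale; its median in WT was 0.16 over cytosolic genes, 0.15 over mitochondrial ones and 0.18 over all genes tested. Of the 12 called cytosolic genes 10 peaked between ZT12 and ZT18 (from ZT13.2 in Vars to ZT16.2 in Farsb), against 25.7% of all genes called in WT. Called mitochondrial genes spread from ZT8.74 (Fars2) to ZT20.9 (Hars2), with 4 of 8 in that window. The window was drawn around the fitted peaks of the cytosolic genes themselves, so their high share in it is in part built in. These peak hours are a description, and their difference between the classes was not tested. With total counts in place of TMM scaling, Rars (adjusted p = 0.149), Yars (0.0735), Mars2 (0.069) and Yars2 (0.103) were not called. Qars, Sars, Nars2 and Tars2 were called in their place, so the count stayed at 20. With no low-count filter Hars2 (0.0622) and Yars2 (0.0569) were not called.

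Hars, the histidine enzyme, had the smallest p of the cytosolic genes that peaked around ZT12 to ZT18. Its WT mice read 54.8, 49.1, 59.9 and 50.9 CPM at ZT16 and 36.03, 32.02, 38.4 and 34.9 CPM at ZT0. The groups did not overlap, and all 4 mice of ZT12 (44.5 to 52.7 CPM) also stood above all 4 of ZT0. The fitted wave had an amplitude of 0.26 ± 0.04 (SE) and peaked at ZT13.7 ± 0.54 h (SE; edgeR adjusted p = 7.97e-07), a 1.43-fold span from trough to peak. Wars, for tryptophan, read 31.5, 31.9, 35.6 and 31.6 CPM in the WT mice of ZT16, above every WT mouse of the other times (18.5 to 30.2 CPM). Its amplitude was 0.27 ± 0.04 (SE) with the peak at ZT15.5 (adjusted p = 1.14e-05). Iars, for isoleucine, had an amplitude of 0.30 at ZT16.0, Farsa, a subunit of the phenylalanine enzyme, 0.25 at ZT14.8, and its partner subunit Farsb 0.22 at ZT16.2. Aars, Vars, Nars, Yars (tyrosine) and Rars (arginine) followed with 0.13 to 0.23. Dars, Eprs, Gars, Kars, Lars, Mars (methionine), Qars (glutamine) and Sars (serine) were not called, with amplitudes of 0.05 to 0.11. Gene bodies of Hars and Hars2 overlap by 198 bases on mm9, those of Farsb and Sgpp2 by 2329 and those of Vars and D17H6S56E-5 by 678. The libraries do not record the strand, so reads there cannot be assigned to 1 gene. Sgpp2 stood at 0.318 CPM, and D17H6S56E-5 at 13.2 against 43.6 for Vars.

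Tars, the threonine enzyme (ENSMUSG00000022241, mm9 chromosome 15, 11313418 to 11329413), had the largest fitted amplitude of the 35 members and peaked later than the other cytosolic genes called, apart from Cars. Its 4 WT mice read 95.8, 97.6, 93.4 and 88.7 CPM at ZT8 and 99.7, 111.0, 111.7 and 123.6 at ZT12. They read 194.2, 200.7, 207.2 and 177.6 CPM at ZT16 and 287.6, 273.6, 234.2 and 241.8 at ZT20. Every mouse of ZT16 and ZT20 stood above every mouse of ZT8 and ZT12. WT mice then read 240.4, 197.2, 220.7 and 178.9 CPM at ZT0 and 188.2, 175.3, 182.5 and 150.9 at ZT4. The wave had an amplitude of 0.70 ± 0.06 (SE), a 2.64-fold span, and peaked at ZT21.2 ± 0.32 h (SE; edgeR adjusted p = 2.4e-11). Within the cage sets, over caged WT mice alone, Tars fell by 0.95 from ZT4 to ZT8, rose by 0.85 from ZT12 to ZT16 and fell by 0.24 from ZT20 to ZT0 on the log2 scale, so a swing was also measured between times that share a cage set.

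Cars, the cysteine enzyme, was the other cytosolic exception. WT mice read 32.5, 23.7, 40.6 and 40.1 CPM at ZT0 and 27.6, 36.8, 37.8 and 35.6 at ZT4, against 27.5, 21.95, 25.1 and 26.6 at ZT12. The groups of ZT0 and ZT12 overlapped through WT mouse 45, and those of ZT4 and ZT12 nearly touched. Cars had an amplitude of 0.25 ± 0.06 (SE) with the peak at ZT2.23 ± 0.90 h (edgeR adjusted p = 0.00209).

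**Figure D2:**
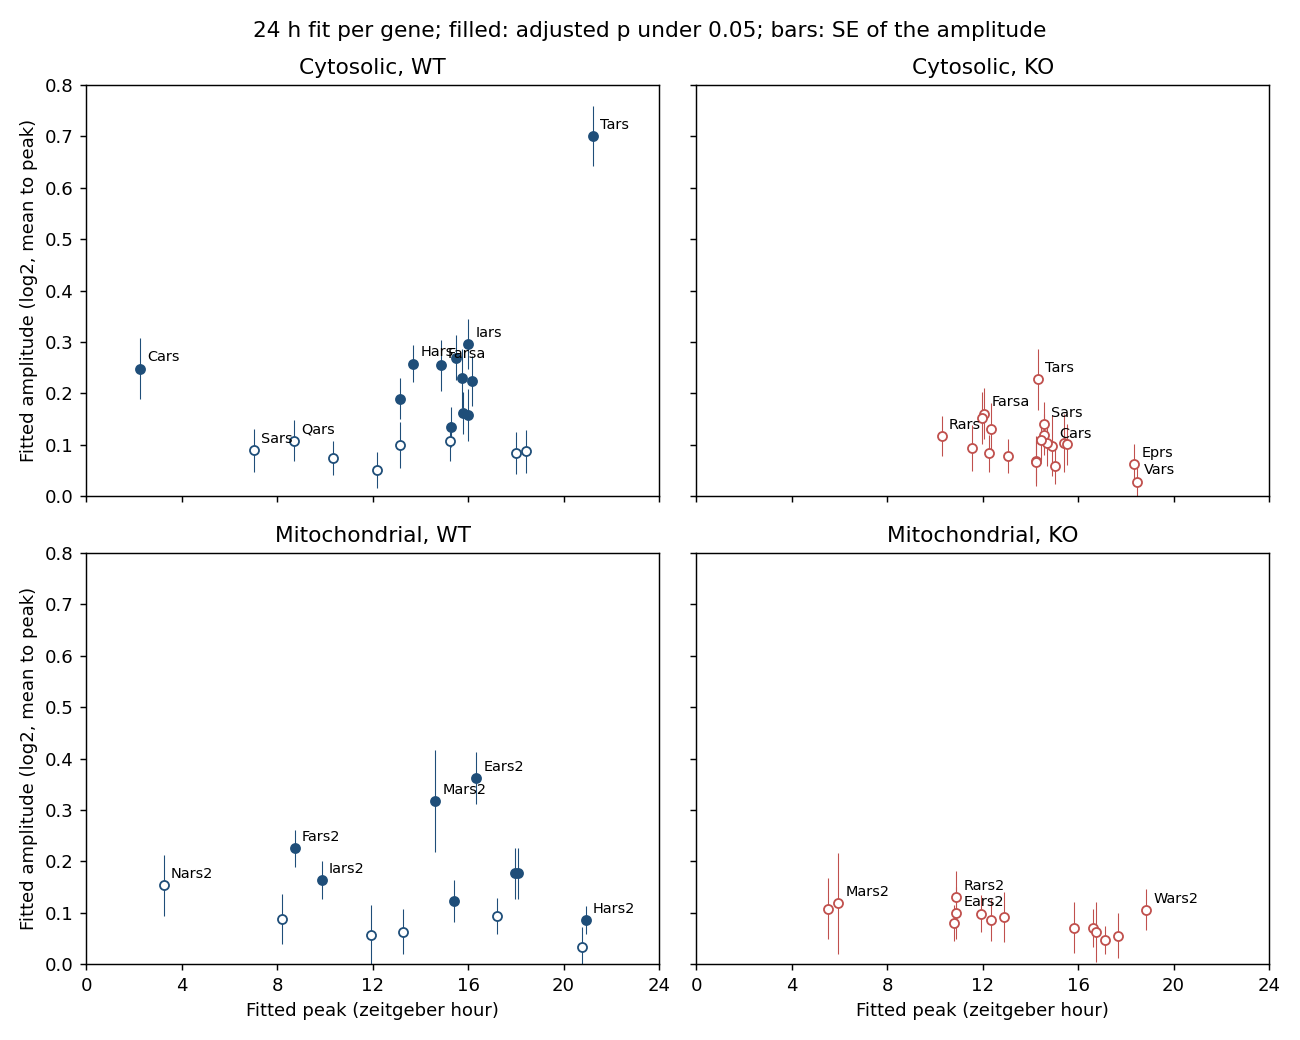
Fitted amplitude (log2, bars SE) against fitted peak hour for cytosolic (top) and mitochondrial genes without Lars2 (bottom) in WT (left) and KO (right); filled points have an adjusted p under 0.05. Called cytosolic genes crowd between ZT13 and ZT17 with Tars and Cars outside, and no KO point is filled.

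Among the mitochondrial enzymes called, Ears2, for glutamate (ENSMUSG00000030871, mm9 chromosome 7, 129180727 to 129210777), had the widest WT wave. Its WT mice read 16.8, 19.4, 20.3 and 17.5 CPM at ZT16, against 9.79, 11.96, 11.6 and 11.2 at ZT8 and 14.04, 10.5, 12.97 and 10.1 at ZT0. Each mouse of ZT16 stood above each of those groups. The amplitude was 0.36 ± 0.05 (SE), a 1.65-fold span, with the peak at ZT16.3 ± 0.54 h (edgeR adjusted p = 7.58e-07), within the window of the cytosolic genes. Fars2 and Iars2 peaked earlier. Fars2 read 33.5, 36.2, 32.7 and 41.4 CPM at ZT8 and 36.2, 34.2, 38.5 and 35.1 at ZT12, against 29.3, 25.7, 28.7 and 29.03 at ZT16. The later group lay wholly below both others (amplitude 0.23 ± 0.04 SE, peak ZT8.74 ± 0.61 h, adjusted p = 9.88e-06). Iars2 read 96.9, 100, 115.7 and 95.6 CPM at ZT12 and 89.2, 72.7, 88.1 and 74.1 at ZT0, also with no overlap (amplitude 0.16 ± 0.04 SE, peak ZT9.86, adjusted p = 0.00123). Rars2, Cars2, Mars2 and Yars2 peaked between ZT14.6 and ZT18.1, and Hars2 at ZT20.9 with a small amplitude of 0.086. For phenylalanine and isoleucine the fitted peaks of the mitochondrial genes (ZT8.74 and ZT9.86) came before those of the cytosolic ones (ZT14.8 for Farsa, ZT16.2 for Farsb, ZT16.0 for Iars). For histidine and arginine they came after (Hars2 ZT20.9 and Hars ZT13.7; Rars2 ZT18.0 and Rars ZT15.3). For tyrosine they lay within their SEs (Yars2 ZT15.4 and Yars ZT16.0), and for cysteine the 2 genes were far apart on the clock (Cars2 ZT18.1 and Cars ZT2.23). None of these pairs was tested. Gene bodies overlap here too: Iars2 with Rab3gap2 by 2018 bases (25.7 CPM, against 91.5 for Iars2), and Ears2 with Ubfd1 by 89 bases (43.1 CPM, against 14.7 for Ears2). Transcripts of Fars2 share a stretch of 503 bases with Nrn1 at 100% identity.

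**Figure D3:**
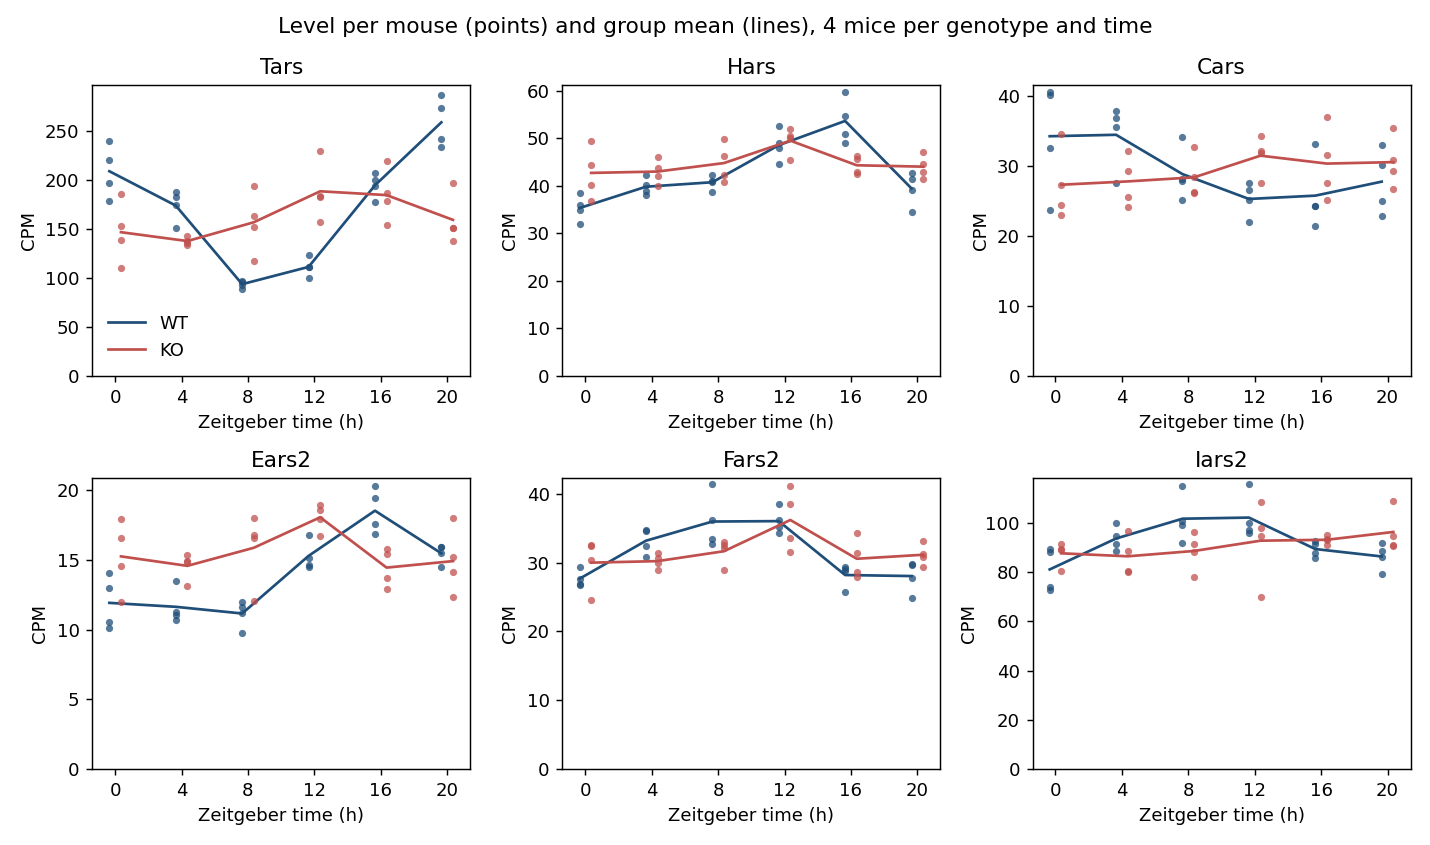
Level in CPM of Tars, Hars, Cars, Ears2, Fars2 and Iars2 in each mouse (points) and group means (lines) over zeitgeber time, WT in blue and KO in red. WT Tars rises from under 98 CPM at ZT8 to over 234 at ZT20, while KO mice stay between 110 and 230.4.

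In KO liver no synthetase was called rhythmic. The test called 0.984% of all genes in KO, so a count of 0 among 35 is close to the share of all genes. At an unadjusted p under 0.05, edgeR found 8 cytosolic (Farsa, Farsb, Gars, Qars, Rars, Sars, Tars and Yars) and 3 mitochondrial genes (Fars2, Rars2 and Wars2). The share of all genes at that unadjusted threshold was not counted, so these numbers have no background here. DESeq2 called Tars, and limma-voom with cage as a random block called 0. The median amplitude in KO was 0.10 over cytosolic genes, 0.092 over mitochondrial ones and 0.11 over all genes; with total counts in place of TMM scaling the cytosolic median was 0.062. The fitted amplitude was lower in KO for 14 of 20 cytosolic and 13 of 15 mitochondrial genes, against 71.9% of all genes. Called or not, 15 of 20 cytosolic and 7 of 15 mitochondrial KO fits had their peak in the window used for WT, ZT12 to ZT18, against 22.8% of all genes. Tars came nearest to a call: KO mice read 184.2, 230.4, 157.2 and 183.4 CPM at ZT12, all above the 138.3, 136.2, 143.2 and 134.0 of ZT4, with an amplitude of 0.23 ± 0.06 (SE) and a peak at ZT14.3 (adjusted p = 0.0733). It was called without the 4 KO libraries named above (amplitude 0.27, adjusted p = 0.0484). Sars, for serine, read 54, 61.8, 66.1 and 57.7 CPM in KO at ZT12 against 39.3, 45.4, 56.6 and 48.95 at ZT0 (amplitude 0.14 ± 0.04 SE, adjusted p = 0.114). Wars2, the mitochondrial tryptophan enzyme, read 7.48, 7.70, 6.33 and 8.06 CPM in KO at ZT16 against 5.91, 6.96, 6.34 and 6.51 at ZT4 (amplitude 0.11 ± 0.04 SE, adjusted p = 0.202). For Sars and Wars2 the groups overlapped. Fars2 had a KO amplitude of 0.099 with the peak at ZT11.9 (adjusted p = 0.187).

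The rhythm itself differed between KO and WT for 11 of 35 synthetases, 7 cytosolic and 4 mitochondrial, against 22.8% of all genes. The cytosolic ones were Tars, Cars, Wars, Hars, Iars, Vars and Sars, and the mitochondrial ones Ears2, Iars2, Rars2 and Fars2. Tars differed most (edgeR adjusted p = 2.81e-08), with an amplitude of 0.70 at ZT21.2 in WT and 0.23 at ZT14.3 in KO. Ears2 went from 0.36 at ZT16.3 to 0.10 at ZT10.9 (adjusted p = 0.00079), and Cars from 0.25 at ZT2.23 to 0.098 at ZT14.9 (adjusted p = 0.00576). Iars2 went from 0.16 at ZT9.86 to 0.071 at ZT16.6 (adjusted p = 0.0167). Sars, which was called in neither genotype, had its fitted peak at ZT7.01 in WT and ZT14.6 in KO (adjusted p = 0.0438). The KO waves among these are not called, and their peak hours carry SEs of 0.99 h (Tars) to 5.43 h (Vars). For Sars the call rested on single mice: it was kept in 27 of 48 fits that left out 1 mouse, with an adjusted p of up to 0.0769 without WT mouse 8 of ZT4. Vars (0.0787 without KO mouse 44 of ZT0), Fars2 (0.0597 without WT mouse 16 of ZT8), Rars2 (0.0547 without WT mouse 12 of ZT8) and Iars (0.0541 without KO mouse 5 of ZT4) also lost it. With total counts in place of TMM scaling Vars (adjusted p = 0.08) and Iars2 (0.0559) were not called, while Farsb, Cars2 and Tars2 were. Hars (0.0581) and Sars (0.0633) were not called without the 4 KO libraries and WT mouse 29 together. Within the 11 shared cages the calls of Tars (edgeR adjusted p = 0.00682) and Ears2 (0.0248) were kept, and those of the other 9 were not (0.125 to 0.453).

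As a class, the cytosolic genes stood highest at ZT16 in WT and at ZT12 in KO. The class mean of log2 CPM, relative to the mean of the 24 WT mice, was 0.199, 0.151, 0.225 and 0.105 in the WT mice of ZT16 and 0.217, 0.213, 0.0826 and 0.156 in the KO mice of ZT12. At ZT12 the WT mice read -0.0205, 0.0687, 0.0907 and -0.0653, so WT and KO overlapped there only through KO mouse 21. Both KO mouse 21 and KO mouse 20, which read 0.213, are among the 4 KO libraries named above. At ZT16 KO mice read 0.143, 0.0828, 0.0788 and -0.0316, overlapping with WT. The mitochondrial class without Lars2 read 0.125, 0.0552, 0.095 and 0.0242 in WT at ZT16. In KO at ZT12 it read 0.0995, 0.228, 0.0796 and 0.103, the highest being mouse 20. KO mice of ZT0 were spread widely in the cytosolic class, at -0.234, -0.174, 0.213 and -0.0548, the highest being mouse 44, another of those 4. These means are given with no test.

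**Figure D4:**
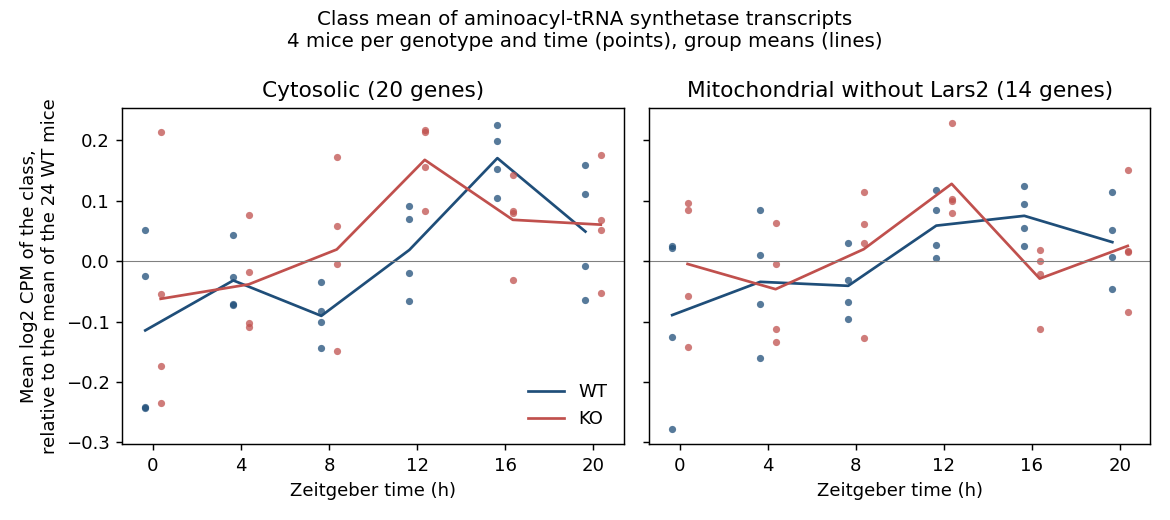
Mean log2 CPM of the 20 cytosolic (left) and 14 mitochondrial genes without Lars2 (right) in each mouse, relative to the mean of the 24 WT mice, with group means as lines. The cytosolic line is highest at ZT16 in WT and at ZT12 in KO, and the 4 KO mice of ZT0 spread from -0.234 to 0.213.

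Averaged over the 6 times, 1 of 35 members differed between genotypes by the test, Ears2, which was higher in KO, against 8.86% of all genes (4.94% higher in KO, 3.92% lower). Among the cytosolic genes edgeR called 0, and DESeq2 and limma-voom also called 0. At an unadjusted p under 0.05 edgeR found 3 (Mars, Yars and Hars), with the share of all genes not counted. In the cytosolic class 18 of 20 log2 fold changes were above 0, with a median of 0.031. The mitochondrial class had 8 of 15 and 0.0063, and all genes tested 50.4% and 0.0011. Genes of a class share mice and move together, so the 18 are not separate observations, and no test was made. Over the caged mice of each cage set the cytosolic mean differed by 0.042 (ZT4 and ZT8), 0.030 (ZT12 and ZT16) and 0.0006 (ZT20 and ZT0). In bulk tissue, fewer cells of a type and less RNA per cell cannot be told apart. Over 24 mice each, the lowest, median and highest level of Ears2 was 9.79, 14.3 and 20.3 CPM in WT and 11.96, 15.4 and 18.9 CPM in KO. The ranges overlapped, and averaged over times the log2 difference was 0.17 ± 0.05 (SE, edgeR adjusted p = 0.0203), with 4 of 6 times above 0. Over the caged mice of each cage set it was 0.42 (ZT4 and ZT8), -0.0043 (ZT12 and ZT16) and 0.078 (ZT20 and ZT0), and within the 11 shared cages 0.14 (edgeR adjusted p = 0.507). The call held in all 48 fits that left out 1 mouse, but not without the 4 KO libraries (0.14, adjusted p = 0.0581) or with a term for body weight (0.16, adjusted p = 0.0847).

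Mars, the methionine enzyme, had the same sign at all 6 times and came next: its lowest, median and highest mouse stood at 54.5, 74.1 and 84.5 CPM in WT and 60.6, 82.6 and 94.7 in KO (0.12 ± 0.04 SE, adjusted p = 0.082). Yars was at 23.01, 36.3 and 46.2 CPM in WT and 28.3, 40.2 and 44 in KO (0.12 ± 0.05 SE, adjusted p = 0.132). Hars was at 32.02, 41.3 and 59.9 CPM in WT and 36.9, 44.5 and 51.9 in KO (0.07 ± 0.03 SE, adjusted p = 0.163). WT and KO overlapped widely in these 3 genes. In the mitochondrial class Pars2 (4.19 CPM in WT and 4.73 in KO as medians, 0.08 ± 0.06 SE, adjusted p = 0.463) and Hars2 (30.7 and 30.3 CPM, -0.03 ± 0.03 SE, adjusted p = 0.549) followed Ears2.

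At single times 9 differences were called, 4 of them in Tars. At ZT8 the KO mice read 194.5, 152.8, 117.8 and 163.5 CPM for Tars, all above the WT mice (88.7 to 97.6), a log2 fold change of 0.74 ± 0.13 (SE, edgeR adjusted p = 0.000324). At ZT12 the 4 KO values given above were again all above WT (99.7 to 123.6; 0.76 ± 0.13 SE, adjusted p = 0.000139). The sign then turned: at ZT20 KO mice read 151.5, 197.2, 151.5 and 138.2 CPM, all below WT (234.2 to 287.6; -0.70 ± 0.13 SE, adjusted p = 0.00639). At ZT0 KO mice read 139.2, 153.1, 185.6 and 110.0 CPM and overlapped with WT (178.9 to 240.4; -0.51 ± 0.13 SE, adjusted p = 0.0366), a call that ended without KO mouse 46 (adjusted p = 0.172), with no low-count filter (adjusted p = 0.0607) and with a term for body weight (adjusted p = 0.07). At ZT4 KO mice (134.0 to 143.2 CPM) lay below WT (150.9 to 188.2) without overlap, but the difference was not called (-0.34, adjusted p = 0.141), and at ZT16 the groups overlapped (-0.08, adjusted p = 0.826). The mean of the 6 differences was -0.020 ± 0.054 (SE, adjusted p = 0.866). Over the caged mice of each cage set KO minus WT in Tars was 0.16 (ZT4 and ZT8), 0.27 (ZT12 and ZT16) and -0.53 (ZT20 and ZT0). Within shared cages Tars kept its sign at the 4 called times, with a call at ZT12 (0.64, edgeR adjusted p = 0.0436) and none at ZT8 (0.60, 0.183), ZT20 (-0.63, 0.207) or ZT0 (-0.77, 0.818); that fit had 5 residual degrees of freedom.

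Ears2 was called at ZT8, where KO mice read 16.5, 12.1, 16.8 and 18 CPM, all above WT (9.79 to 11.96; 0.51 ± 0.12 SE, edgeR adjusted p = 0.00521). Gars, the glycine enzyme, was called at ZT12, with 67.8, 75.4, 60.9 and 59.2 CPM in KO and 49.9, 56.1, 60.5 and 49.1 in WT, which overlap (0.29 ± 0.09 SE, adjusted p = 0.0335). That call ended without KO mouse 20 (adjusted p = 0.148), without the 4 KO libraries (adjusted p = 0.136), with a term for body weight (adjusted p = 0.149), with no low-count filter (adjusted p = 0.0691) and with total counts in place of TMM scaling (adjusted p = 0.055). At ZT16, where the cytosolic genes stood highest in WT, 3 cytosolic genes were lower in KO. Wars read 26.8, 26.6, 24.02 and 23.1 CPM in KO, all below WT (31.5 to 35.6; -0.38 ± 0.10 SE, adjusted p = 0.0212). Farsb read 41.7, 45.9, 45.3 and 39.5 CPM, below WT (47.9 to 61.6; -0.34 ± 0.10 SE, adjusted p = 0.0382), and Hars 46.2, 42.9, 45.7 and 42.5 CPM, below WT (49.1 to 59.9; -0.28 ± 0.08 SE, adjusted p = 0.0296). All 3 calls ended without WT mouse 29 of ZT16 (adjusted p = 0.0893, 0.165 and 0.143), and those of Farsb and Hars also with no low-count filter (adjusted p = 0.0741 and 0.0716). Within shared cages neither Ears2 at ZT8 (0.60, edgeR adjusted p = 0.0599), Gars at ZT12 (0.23, 0.173) nor the 3 genes at ZT16 (-0.55 to -0.37, 0.306 to 0.453) were called, with the same signs.

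Shares of all genes called set the background. At ZT0 it was 1.68% (1.06% higher in KO, 0.613% lower) against 1 of 35 members, which was lower, and at ZT4 3.79% (1.9% higher, 1.89% lower) against 0. ZT8 had 7.87% (3.78% higher, 4.08% lower) against 2 members, both higher, and ZT12 had 11.7% (6.59% higher, 5.12% lower) against 2, both higher. At ZT16 it was 5.37% (2.6% higher, 2.77% lower) against 3 members, all lower, and at ZT20 1.05% (0.647% higher, 0.404% lower) against 1, which was lower. At ZT4 edgeR found 7 members at an unadjusted p under 0.05, with the share of all genes not counted, and DESeq2 and limma-voom called 0. A genotype difference that varied over the 6 times was called for 8 members, Tars, Hars, Farsb and Wars of the cytosolic class and Ears2, Cars2, Tars2 and Nars2 of the mitochondrial class, against 20.7% of all genes. Cars2 (adjusted p = 0.0412), Tars2 (0.0448) and Nars2 (0.0473) were called in only 23, 15 and 14 of the 48 fits that left out 1 mouse. Without the 4 KO libraries Cars2 (0.0629) and Tars2 (0.124) were not called, and without WT mouse 29 as well Farsb (0.0521) and Wars (0.0559) were not. Within shared cages none of the 8 was called (0.0867 for Tars to 0.473 for Nars2).

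**Figure D5:**
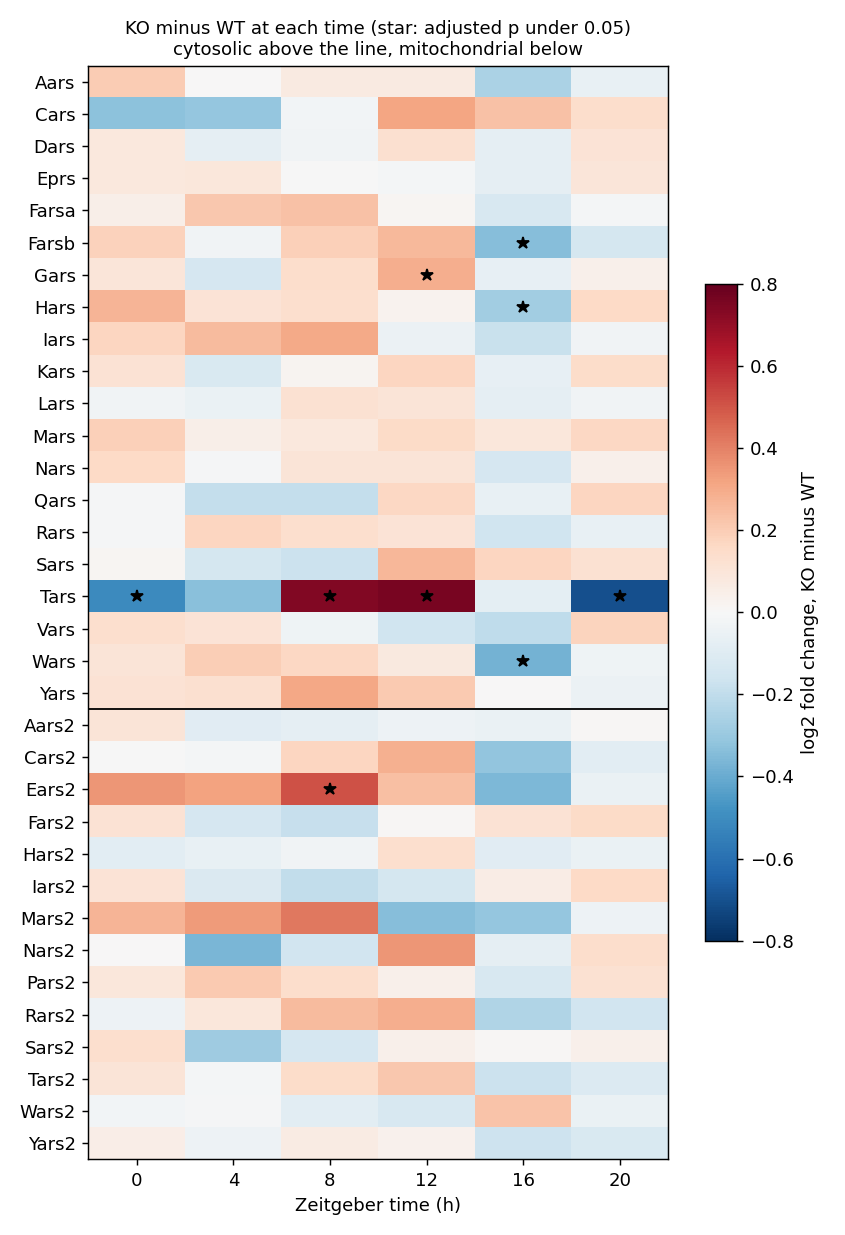
Log2 fold change KO minus WT (colour) of 34 members at each zeitgeber time, without Lars2; stars mark an adjusted p under 0.05. Tars turns from negative at ZT0 to positive at ZT8 and ZT12 and back to negative at ZT20, and 3 of the 9 stars lie at ZT16.

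Synthetases of the cytosol moved together from mouse to mouse. On deviations from group means, which remove genotype and time, the median r between 2 cytosolic genes over 48 mice was 0.48, with 183 of 190 pairs above 0. It was 0.29 between mitochondrial genes without Lars2 (80 of 91 pairs above 0) and 0.26 between the classes. As means, r was 0.45, 0.25 and 0.23 in the same order. Over all pairs of genes tested, which include genes of any level, the mean was 0.0006. The pairs share libraries and depth scaling, and no test was made. Nars (r = 0.91), Aars (0.89) and Farsb (0.88) followed the rest of their class most closely over the 12 group means, while Tars (0.17) and Cars (-0.32) did not. The 5 genes whose group means ran most like the cytosolic class, out of 9256 with at least 5 CPM, were Snrpd3, a core protein of the spliceosome (r = 0.96), Nkiras1 (0.95), Tfg (0.95), Eef1g, a subunit of the elongation factor that brings charged tRNA to the ribosome (0.95), and Aven (0.94). For the mitochondrial class, here with Lars2 included, they were Rheb, the activator of the growth kinase mTORC1 (0.96), Ankrd40 (0.93), Jmjd8 (0.92), Atox1, a copper chaperone (0.92), and Ecsit (0.92).

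Other genes of the charging pathway were taken from lists. Calls of genes in this and the following lists come from the main fit alone. They were not checked by leaving out mice, with other tools or within cages. The scaffold of the multisynthetase complex, which holds several cytosolic enzymes together, has the subunits Aimp1, Aimp2 and Eef1e1. All 3 were called rhythmic in WT, against 48.1% of all genes. Aimp2 had an amplitude of 0.40 at ZT12.9, Eef1e1 0.30 at ZT13.2 and Aimp1 0.19 at ZT8.86. The rhythm of 1 of the 3, Aimp2, differed between genotypes (edgeR adjusted p = 0.0143, KO amplitude 0.12), against 22.8% of all genes. Of 14 other genes of tRNA charging that were measured, 8 were rhythmic in WT (48.1% of all genes) and 6 differed in rhythm (22.8% of all genes), led by Mtfmt, which formylates the mitochondrial initiator tRNA (adjusted p = 0.00226). Xpot, the exportin that carries tRNA out of the nucleus, was the 1 of 14 called on average, against 4.94% of all genes higher in KO. Its means over 24 mice were 110 CPM ± 8.0 (SD) in WT and 123 CPM ± 14.6 (SD) in KO (0.15 ± 0.04 SE, edgeR adjusted p = 0.00934).

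Some elongation factors of the cytosol were higher in KO on average. Of 6 measured, 3 were higher in KO, against 4.94% of all genes: Eef1a1, which delivers charged tRNA (0.21 ± 0.04 SE, edgeR adjusted p = 0.00187), and the exchange factor subunits Eef1b2 (0.19 ± 0.05 SE, adjusted p = 0.00615) and Eef1d (0.13 ± 0.04 SE, adjusted p = 0.032). Means of Eef1a1 over 24 mice were 5084 CPM ± 466 (SD) in WT and 5869.9 CPM ± 744 (SD) in KO. The test of the difference between these factors and the synthetases was not made. Of 6 mitochondrial elongation and initiation factors, Gfm1 was lower (-0.14 ± 0.04 SE, adjusted p = 0.0419; 3.92% of all genes were lower), and 4 were rhythmic in WT (48.1% of all genes).

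Of 32 genes of the amino acid response, 3 were higher in KO on average and 1 lower, against 4.94% and 3.92% of all genes. Atf5, a transcription factor of that response, was higher by 0.27 ± 0.08 (SE, edgeR adjusted p = 0.0292), Slc3a2, the heavy chain of amino acid exchangers, by 0.14 ± 0.04 (SE, adjusted p = 0.0249) and Nupr1 by 0.39 ± 0.13 (SE, adjusted p = 0.047). Trib3, an inhibitor of AKT and ATF4, was lower, with means over 24 mice of 7.17 CPM ± 6.74 (SD) in WT and 2.68 CPM ± 1.57 (SD) in KO (-0.94 ± 0.17 SE, adjusted p = 0.000203). In WT 15 were rhythmic, and the rhythm differed for 7, close to the 48.1% and 22.8% of all genes, led by Trib3 (adjusted p = 9.63e-07), Gpt2 (2.19e-05), Atf5 (2.53e-05) and Ddit4 (0.000567). The WT waves of these genes peaked at different hours: ZT5.74 for Trib3, ZT11.7 for Gpt2, ZT23.4 for Atf5 and ZT17.4 for Ddit4. Fitted KO peaks were ZT18.5, ZT3.90, ZT14.8 and ZT16.3 in the same order. None of these KO waves was called (edgeR adjusted p = 0.118 for Atf5 to 0.782 for Ddit4). Atf5 had an amplitude of 0.58 in WT and 0.28 in KO. Atf4 itself had an amplitude of 0.16 at ZT16.5 in WT (adjusted p = 0.0129) and the rhythm difference did not pass (adjusted p = 0.092); it was named after its value was seen. Of 12 regulators of mitochondrial biogenesis Ppargc1b was lower in KO (-0.47 ± 0.10 SE, adjusted p = 0.00164), 8 were rhythmic in WT (48.1% of all genes), with 1 peak between ZT12 and ZT18 (25.7% of all genes called), and the rhythm of 6 differed (22.8% of all genes).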

How the data were processed

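Poly-A liver RNA was sequenced from 48 mice with a kit that does not record strand (13 PCR cycles, 2 libraries per lane). Per the submitters' processing notes the authors used CASAVA, STAR 2.4.0f1 and build mm9. They deposited a table of whole-number counts per gene whose near-equal totals show an unexplained step to a common depth; its counting rules are not given in the sources used here. Reads carry no molecular identifiers, so PCR copies count as separate reads. In pairs of replicate libraries chi-square per degree of freedom was 33.3 to 188, far above counting noise.

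Counts were analysed with edgeR 4.0.16 (R 4.3.3): filterByExpr with a minimum count of 10, TMM factors of 0.898 to 1.14, and a quasi-likelihood fit of 12 group means (36 residual degrees of freedom) for differences, or of a 24 h cosine wave in each genotype (42) for rhythm. P values were adjusted over 14836 genes. SEs of amplitudes and peak hours are approximate (delta method). Levels are CPM, and log2 CPM used a prior count of 2. Coding lengths come from GENCODE M21. The fits were tested on simulated data. The members and lists were chosen with earlier results of these data known. Values per mouse are given for the 3 members of each class with the smallest p for the average difference and the WT rhythm, the 2 for the KO rhythm and the rhythm difference; Gars and Farsb, called at single times, were added after their values were seen. From each list up to 4 genes with the smallest p are named. Alternatives were total counts, DESeq2 1.42.0, no filter, limma-voom 3.58.1 with cage as a random block, body weight, a test of any difference among times, leaving out 4 libraries, leaving out each mouse and, chosen after seeing the data, leaving out WT mouse 29 as well and pairing KO and WT mice that shared a cage.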

Additional observations from a re-analysis of the deposited data

Results flagged for a closer look

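In 5 of the 156 groups of 4 mice examined for 13 named members, 1 mouse lay far from the other 3 by Dixon's test at 95%; chance alone marks about 1 in 20. WT mouse 29 of ZT16 read 35.6 CPM for Wars (others 31.5 to 31.9), and the call of Wars at ZT16 ended without it. WT mouse 28 of ZT16 read 25.7 CPM for Fars2 (others 28.7 to 29.3). WT mouse 17 of ZT12 read 38.8 CPM for Yars (others 36.3 to 36.5), KO mouse 21 of ZT12 81.8 CPM for Mars (others 86.9 to 87.3) and KO mouse 31 of ZT16 32.3 CPM for Hars2 (others 29.8 to 30.2).

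The difference between genotypes varied over the 6 times for 8 of 35 members by edgeR's test, close to the 20.7% of all genes. Adjusted p was 1.15e-07 for Tars, 0.00124 for Ears2, 0.00525 for Hars and 0.00801 for Farsb. It was 0.0224 for Wars, 0.0412 for Cars2, 0.0448 for Tars2 and 0.0473 for Nars2. The 24 h wave differed between genotypes for 11 of 35 members by edgeR's test, against 22.8% of all genes. Adjusted p was 2.81e-08 for Tars, 0.00079 for Ears2, 0.00576 for Cars, 0.0131 for Wars, 0.0167 for Iars2 and 0.0198 for Hars. It was 0.0254 for Rars2, 0.0273 for Iars, 0.0277 for Fars2, 0.0349 for Vars and 0.0438 for Sars.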

How the results depend on the processing

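Tars at ZT8, ZT12 and ZT20, Ears2 at ZT8, and the WT waves of Aars, Cars, Farsa, Farsb, Hars, Iars, Nars, Tars, Vars, Wars, Cars2, Ears2, Fars2, Iars2 and Rars2 were called under all 6 alternatives of normalization, tool, filter, covariate and libraries (without the 4 KO libraries) and in all 48 fits that left out 1 mouse. With no low-count filter, mitochondrial members called for the interaction were 1 rather than 4, cytosolic members called for the rhythm difference 4 rather than 7, and calls at single times 5 rather than 9; the adjustment then covers more genes. Without KO mice 20, 21, 43 and 44 the average call of Ears2 was lost (0 mitochondrial members), the interaction was called for 2 mitochondrial members and 1 cytosolic member (Tars) was called in KO; fewer mice enter that fit. Leaving out WT mouse 29 of ZT16 as well, chosen after seeing the data, the interaction was called for 2 cytosolic and 2 mitochondrial members and the KO rhythm for 1 cytosolic member. Body weight as a covariate also gave 0 and 2, and DESeq2 also called 1 cytosolic member in KO; the cause was not tested. In CPM with no length scaling the WT ratio of class medians was 2.44 rather than 2.86 with Lars2, and 2.85 rather than 2.88 without it. Leaving out 1 mouse gave 0 to 1 cytosolic and 1 mitochondrial calls on average, 3 to 7 and 1 to 5 for the interaction, 11 to 14 and 5 to 9 for the WT rhythm, 0 to 2 and 0 for the KO rhythm, 6 to 8 and 3 to 5 for the rhythm difference, and 6 to 12 at single times. The extremes came without WT mouse 11 of ZT8 (interaction, 1 mitochondrial member), KO mouse 41 of ZT0 (interaction, 7 cytosolic), WT mouse 17 of ZT12 (WT rhythm, 5 mitochondrial), KO mouse 44 of ZT0 (KO rhythm, 2 cytosolic) and KO mouse 31 of ZT16 (6 calls at single times). A paired fit of the 22 KO and WT cage mates of 11 cages, with cage as a replicate block, was added after seeing the data: it called 0 members on average (0 mitochondrial rather than 1), 0 and 0 for the interaction, 1 cytosolic (Tars) and 2 mitochondrial (Ears2 and Tars2) for the rhythm difference and 1 at single times (Tars at ZT12). It has fewer mice and 5 to 10 residual degrees of freedom, and called 196 of all genes on average rather than 1314; rhythm within a genotype cannot be paired, since each cage holds 1 time. Over all 48 mice, limma-voom with cage as a random block ended only the interaction of Nars2 (adjusted p = 0.0575). The correlation within cages was 0.081 in the fit of 12 groups and 0.158 in the 24 h fit. The 24 h fit rests on 1 cycle of 6 times.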
